A study of Ranunculus trichophyllus with 6 samples.

Results

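The 5 transcripts described here come from *Ranunculus trichophyllus*, an amphibious plant that forms broad leaves on land and thin, thread-like leaves under water. They are the homologs of the abscisic acid (ABA) receptors PYL1 (AT5G46790) and PYL4 (AT2G38310), the ABA 8′-hydroxylase CYP707A2 (AT2G29090), the transporter ABCG22 (AT5G06530) and the drought-responsive protein RD22 (AT5G25610). Each was found by the *Arabidopsis* locus named in its best protein match. Of 8613 *Arabidopsis* loci with a matching transcript these are 5, and each had exactly 1 matching transcript, so the value of the transcript and of the locus is the same. All 5 passed the filter on low counts, as did 8154 of the 8613 loci.

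Seedlings without cotyledon and hypocotyl were taken for RNA-seq from terrestrial plants and from aquatic plants, which had been put under water at 1 week of age, with 3 libraries per condition. All grew at 22 °C under 16 h of light and 8 h of dark, and the labels name no mutant and no hormone treatment. By the labels, the first replicate of each condition is 14-day leaf and the other 2 are 11-day leaf that includes the shoot apical meristem. Age and tissue therefore change together between the harvests. Time under water changes with them in the aquatic plants, which were all put under water at the same age. The comparison of the conditions asks how transcript levels differ between the terrestrial and the aquatic leaf form.

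In *Arabidopsis*, PYR/PYL proteins bind ABA and then hold back the PP2C phosphatases, which frees SnRK2 kinases to phosphorylate transcription factors and guard cell channels. The hormone is made from carotenoids by ZEP (ABA1), NCED, ABA2 and aldehyde oxidase, and is broken down mainly by 8′-hydroxylation through the CYP707A family. The pathway closes stomata and turns on genes of drought tolerance in leaves.

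Libraries held 25345718 to 33978729 counts. Aquatic replicate 1 stood apart, with 36.2% of its counts in 3 unannotated transcripts (0.287 to 0.987% in the other libraries), and aquatic replicate 2 had counts for 1617 of 1705 transcripts with a fungal match (53 to 159 in the other libraries). Summed markers of the shoot apex were 33.5 and 20.7 CPM in the 14-day terrestrial and aquatic libraries. In the 11-day libraries they were 393 and 528 CPM on land and 266 and 258 CPM under water. CPM is the count scaled to library size after TMM normalization over the homologs. The meristem genes STM and KNAT1 were at 0 in both 14-day libraries. Of 7 apex and division markers tested, edgeR called 4 lower in aquatic plants and 0 higher (adjusted p under 0.05), where 6.78% of all homologs were lower. With the replicate number as a block 1 was lower, where 1.45% of homologs were. The 4 called lower over all 6 libraries were CLV1 and the division genes KNOLLE, AUR1 and CDKB2;1. STM and KNAT1 did not pass, with log2 changes of 0.40 and 0.92 (adjusted p = 0.491 and 0.0883 from edgeR). The division gene CDKB1;1 did not pass either (−0.27, adjusted p = 0.461). Summed leaf photosynthesis markers lay between 40212 and 76614 CPM in all libraries, and 2 root markers of 8 listed were measured, with sums of 0.206 to 2.43 CPM.

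Both ABA receptor homologs were higher in aquatic plants, by 2.17-fold for PYL1 and 2.91-fold for PYL4, while the ABA-degrading CYP707A2 and the transporter ABCG22 fell from 7.96 to 497 CPM in single terrestrial libraries to under 1 CPM in each aquatic library. RD22 did not pass between the conditions with both harvests in the fit, but its aquatic effect differed between the harvests. Among all homologs tested, 9.6% were called higher and 6.78% lower in aquatic plants (783 and 553 of 8154), so that calls in either direction were 16.4% of all homologs, beside 4 of these 5 (edgeR's quasi-likelihood test, Benjamini-Hochberg adjusted p under 0.05). The 5 were chosen with earlier results of these data known, so 4 of 5 is no test against that share. With the replicate number as a block 1 of the 5 passed, CYP707A2, where 4.01% of homologs were called higher and 1.45% lower. In bulk RNA, fewer cells of a type and less RNA per cell cannot be told apart. Nothing in the labels says whether the libraries of a condition came from separate cultures, so the p-values measure the spread between these libraries.

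**Figure D1:**
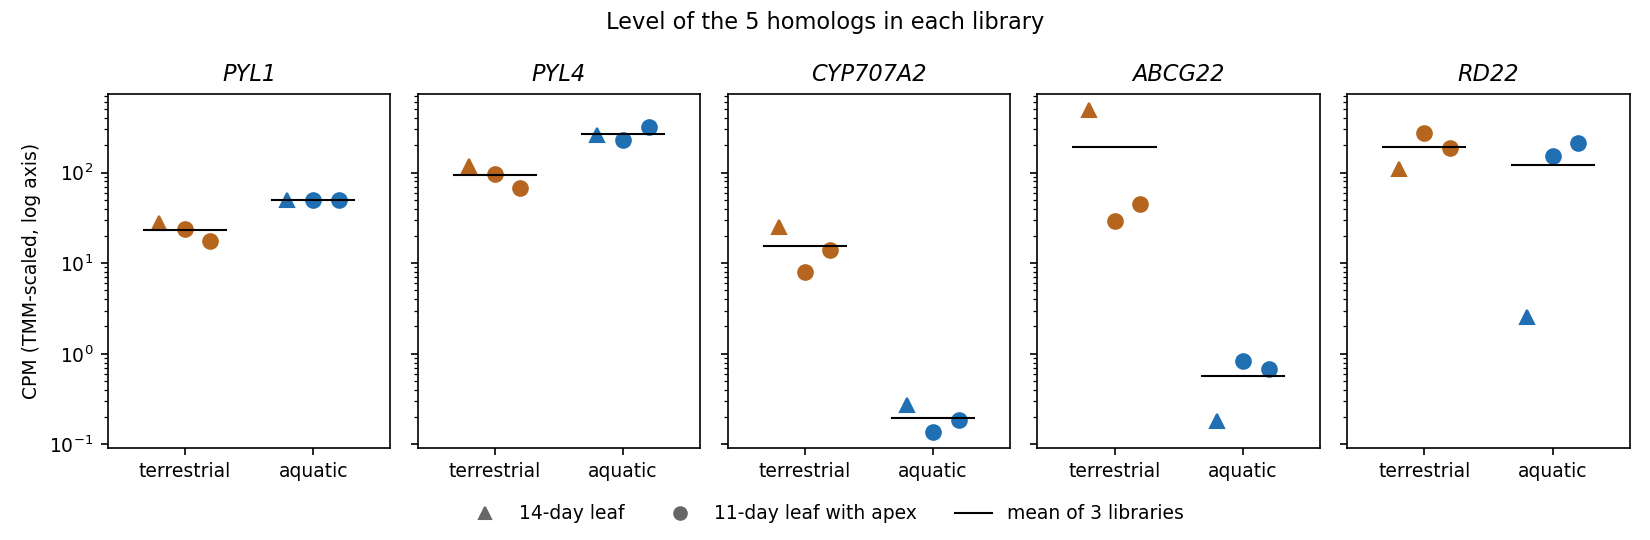
CPM (TMM-scaled, log axis) of the 5 homologs in the 3 terrestrial and 3 aquatic libraries, with triangles for the 14-day leaf, circles for the 11-day leaf with apex and a line at the mean. PYL1 and PYL4 lie higher in every aquatic library, CYP707A2 and ABCG22 lie under 1 CPM in every aquatic library, and RD22 is low in aquatic replicate 1 only, at 2.52 CPM.

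The receptor homologs come first. The PYL1 transcript (c47400_g1_i1, 1187 bases, 63% of residues identical to the *Arabidopsis* protein) encodes a homolog of an ABA receptor that can form a dimer in *Arabidopsis*. In replicates 1 to 3 it stood at 27.8, 23.75 and 17.8 CPM on land and at 49.6, 49.4 and 49.98 CPM under water. The 3 aquatic libraries lay within 1 CPM of each other, and the groups did not overlap. Groups that do not overlap, with aquatic higher, were found for 13.7% of all homologs. PYL1 rose by 1.12 log2 units (adjusted p = 0.0193 with a standard error of 0.17, from edgeR's quasi-likelihood test with Benjamini-Hochberg adjustment). The mean went from 23.1 ± 5.01 CPM (SD, n = 3) in terrestrial to 49.7 ± 0.298 CPM (SD, n = 3) in aquatic plants.

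The PYL4 transcript (c52400_g1_i1, 709 bases, 78% identity) is a homolog of another receptor of the family, which is a monomer in *Arabidopsis*. It had 117, 97.7 and 67.95 CPM in the terrestrial libraries and 262, 227 and 323 CPM in the aquatic libraries, replicates 1 to 3 in each case. Every aquatic library was above every terrestrial one, with the 11-day replicate 3 lowest on land and highest under water. PYL4 rose by 1.54 log2 units (adjusted p = 0.0211 with a standard error of 0.25, from edgeR). Its mean was 94.2 ± 24.7 CPM (SD, n = 3) in terrestrial and 271 ± 48.9 CPM (SD, n = 3) in aquatic plants.

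Per length of transcript, PYL4 was the more abundant of the receptors in all 6 libraries. In TPM, which divides by transcript length, PYL4 stood at 132, 113 and 81.9 in the terrestrial and 238, 237 and 334 in the aquatic libraries, and PYL1 at 16.45, 14.55 and 11.4 and at 23.8, 27.3 and 27.45 in the same libraries. The level of PYL4 was 7.19 to 8.04 times that of PYL1 in terrestrial and 8.70 to 12.2 times in aquatic libraries, and these 2 ranges were not tested against each other. PYL4 was above 90.3 to 97.9% of tested homologs by TPM, and PYL1 above 42.8 to 71.8% in the 6 libraries, which puts PYL4 among the abundant homologs and PYL1 near the middle. The 2 receptors summed to between 93.3 and 149 TPM on land and between 262 and 361 TPM under water.

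Within single experiments, that is libraries of the same replicate number, the aquatic level by CPM was 1.79, 2.08 and 2.81 times the terrestrial for PYL1 and 2.24, 2.32 and 4.76 times for PYL4. Both receptors were therefore higher under water in 3 of 3 experiments. The interaction of harvest and condition did not pass for PYL1 (−0.42, standard error 0.30, adjusted p = 0.519) or PYL4 (−0.57, standard error 0.45, adjusted p = 0.559 from edgeR). In the 11-day harvest alone PYL1 rose by 1.26 (adjusted p = 0.0174) and PYL4 by 1.73 (adjusted p = 0.0202). Among all homologs the 11-day harvest alone gave 10.8% called higher and 8.93% lower. Once the replicate number entered as a block neither call held (adjusted p = 0.0540 for PYL1 and 0.0640 for PYL4). Leaving out terrestrial replicate 2, terrestrial replicate 3, aquatic replicate 2 or aquatic replicate 3 gave adjusted p = 0.0748, 0.0791, 0.0770 and 0.0611 for PYL1 and 0.0802, 0.0912, 0.0709 and 0.0473 for PYL4. With library totals in place of TMM, which lowered the median of all homologs from −0.02 to −0.35 on the log2 scale, PYL1 stood at 0.79 (adjusted p = 0.0983) and PYL4 at 1.22 (adjusted p = 0.0684).

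The CYP707A2 transcript (c13274_g1_i1, 1842 bases, 67% identity) is the homolog of a cytochrome P450 that starts the breakdown of ABA and is best known in *Arabidopsis* for ending seed dormancy. It had 405, 117 and 215 counts in terrestrial replicates 1 to 3 and 3, 2 and 3 counts in aquatic replicates 1 to 3. The terrestrial libraries stood at 25.1, 7.96 and 13.8 CPM and the aquatic ones at 0.270, 0.138 and 0.185 CPM. No aquatic library was above 3 counts, and the groups did not overlap, as was so with aquatic lower for 11.8% of all homologs. CYP707A2 fell by 6.18 log2 units (adjusted p = 0.00679 with a standard error of 0.37, from edgeR), the 8th most negative of the 8154 fold changes.

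Counted directly, the terrestrial level was 83.2 times the aquatic over all libraries (95% exact counting interval 42.0 to 193), and 92.9, 57.9 and 74.8 times in experiments 1 to 3. These intervals cover counting error only, and with 8 aquatic counts in all they are wide. The interaction of harvest and condition did not pass (−0.50, standard error 1.06, adjusted p = 0.843 from edgeR), and in the 11-day harvest alone CYP707A2 fell by 5.997 log2 units (adjusted p = 0.00788). CYP707A2 was the one of the 5 that also passed with the replicate number as a block (adjusted p = 0.0226). It passed without each library in turn (adjusted p from 0.00752 to 0.0447) except without aquatic replicate 2, where adjusted p was 0.0524. On the log2(FPKM + 1) scale, which understates changes of low genes, limma gave −2.13 (adjusted p = 0.00846). Between the terrestrial harvests the 14-day library was 2.29 times as high as the 11-day ones, and the harvest term did not pass (1.11, adjusted p = 0.0564).

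CYP707A4 was the other homolog of the CYP707A family in the annotation. In *Arabidopsis* it is an 8′-hydroxylase as well. It had 10, 63 and 48 counts in the terrestrial and 0, 1 and 4 counts in the aquatic libraries, and was left out of the test over all 6 libraries by the filter on low counts. All its aquatic counts were below all its terrestrial counts. Where the filter admitted it, its log2 change was −4.54 with no filter (adjusted p = 0.0159 from edgeR) and −4.44 in the 11-day harvest alone (adjusted p = 0.0147), and −4.04 without aquatic replicate 2 (adjusted p = 0.0646). Of the 4 family members listed, CYP707A1 and CYP707A3 had no matching transcript in the annotation used here. The receptor list of 14 had 4 matches, of which PYL11 (0, 5 and 6 terrestrial, 0, 1 and 0 aquatic counts) and PYL12 (0 counts in 5 libraries and 4 in aquatic replicate 3) were too low to test.

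The ABCG22 transcript (c58572_g1_i1, 2293 bases, 77% identity) is the homolog of an ABC transporter of the G subfamily, whose loss in *Arabidopsis* raises water loss through stomata. It had 8020, 434 and 704 counts in terrestrial replicates 1 to 3 and 2, 12 and 11 counts in aquatic replicates 1 to 3. As CPM these were 497, 29.5 and 45.3 on land and 0.1801, 0.825 and 0.678 under water. The 14-day terrestrial library was far above the rest and the 14-day aquatic library was the lowest, and the groups did not overlap. By TPM, ABCG22 was at 140 in terrestrial replicate 1, above 95.1% of tested homologs, and at 8.67 and 13.9 in the 11-day terrestrial libraries, both below the medians of 14.1 and 14.4 over the homologs tested.

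ABCG22 fell by 7.14 log2 units (adjusted p = 0.0214 with a standard error of 1.16, from edgeR), the 6th most negative fold change. The size of the fall differed between harvests. The terrestrial level was 2759 times the aquatic at 14 days (95% exact counting interval 764 to 22788), and 35.8 and 66.8 times in the 11-day experiments 2 and 3 (intervals 20.3 to 69.8 and 37.1 to 134). The one 14-day aquatic library is aquatic replicate 1, which has 36.2% of its counts in 3 transcripts, and its part in the interactions of ABCG22 and RD22 was not tested, since no interaction can be fitted without it. The interaction of harvest and condition was −5.74 in log2 units (adjusted p = 0.0287 with a standard error of 0.76, from edgeR), where 4.61% of all homologs passed, 0.662% upward and 3.95% downward. It passed with the replicate block (adjusted p = 0.0486), where 0.319% of homologs passed upward and 2.31% downward, and without each 11-day library in turn (0.0317 to 0.0436). In the 11-day harvest alone, ABCG22 fell by 5.62 log2 units (adjusted p = 0.00681).

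On land the 14-day library held 13.2 times the ABCG22 level of the 11-day libraries (95% exact counting interval 12.4 to 14.1), with 1 library at 14 days and no replicate check. The harvest term over both conditions did not pass (2.58, adjusted p = 0.114), where 33.8% of homologs did, 15.4% upward and 18.4% downward. The aquatic fall lost its call with the replicate block (adjusted p = 0.0673) and without terrestrial replicate 2, terrestrial replicate 3, aquatic replicate 2 or aquatic replicate 3 (0.0696, 0.0967, 0.0770 and 0.0628), and kept its direction in each of these. On the log2(FPKM + 1) scale limma gave −4.24 (adjusted p = 0.0164).

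**Figure D2:**
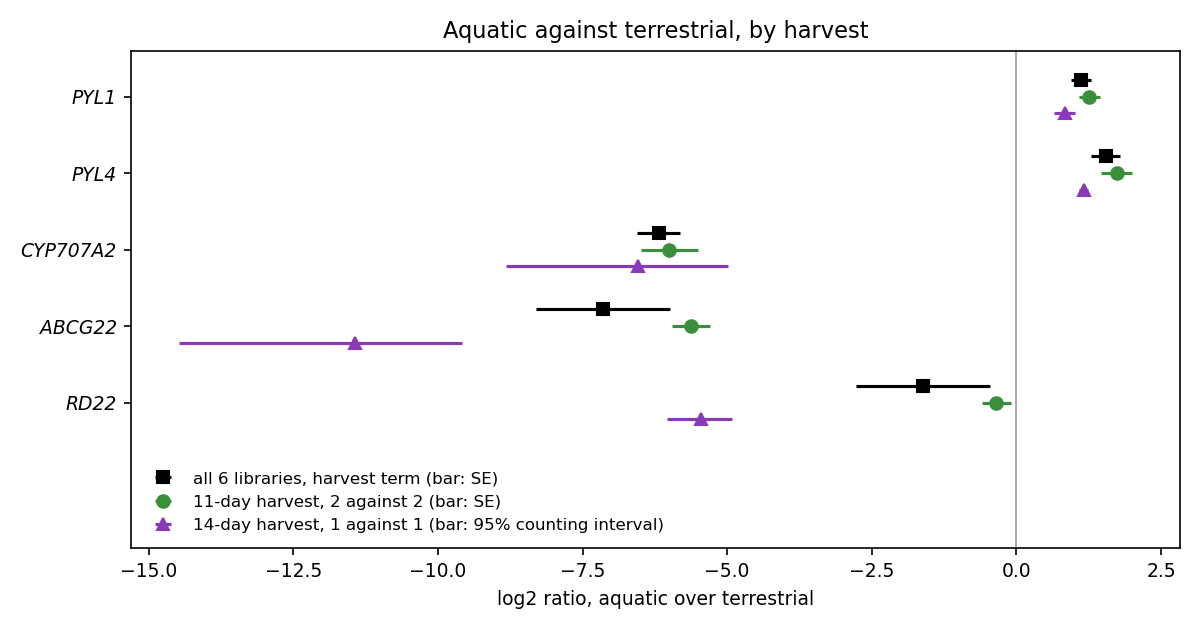
Log2 ratio, aquatic over terrestrial, of the 5 homologs from all 6 libraries with a harvest term (squares, SE), from the 11-day harvest alone (circles, SE) and from the 1 library a condition of the 14-day harvest (triangles, 95% counting interval, no replicate error). The 3 estimates lie close for PYL1, PYL4 and CYP707A2, and the 14-day estimate lies lower for ABCG22 and RD22, whose interactions were −5.74 and −5.10.

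The RD22 transcript (c56325_g2_i1, 1941 bases, 53% identity) is the homolog of a BURP-domain protein that serves in *Arabidopsis* as a marker of the response to drought and ABA. In replicates 1 to 3 it stood at 110, 276 and 188 CPM on land and at 2.52, 153 and 211 CPM under water. The 14-day aquatic library was low, with 28 counts beside 2230 and 3427 in the other 2, and these lay inside the terrestrial range, so the groups overlapped. RD22 was the 1 of the 5 that did not pass for the aquatic effect (−1.61, standard error 1.16, adjusted p = 0.357 from edgeR).

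At 14 days the terrestrial level of RD22 was 43.7 times the aquatic (95% exact counting interval 30.1 to 65.95). At 11 days the terrestrial level was 1.80 times the aquatic in experiment 2, and the aquatic was 1.13 times the terrestrial in experiment 3. The direction was thus not the same when libraries were paired by number. With the 11-day libraries paired the other way, aquatic was lower in both pairs (211 beside 276 CPM and 153 beside 188 CPM). The 11-day harvest alone gave −0.34 on the log2 scale (adjusted p = 0.372). The interaction, which rests at 14 days on aquatic replicate 1, was −5.10 (standard error 0.53, adjusted p = 0.0170 from edgeR). It did not pass with the replicate block (adjusted p = 0.0516) or without terrestrial replicate 3 (0.0505), and it passed without each of the other 11-day libraries (0.0055 to 0.0352). Between harvests, the 11-day level was 72.9 times the 14-day level in aquatic (95% exact counting interval 50.4 to 110) and 2.09 times in terrestrial plants.

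Markers of guard cells, which border the pore that ABA closes, and of the stomatal lineage were read beside ABCG22 and RD22. Of 16 listed, 8 were measured, 3 fell in aquatic plants and 0 rose, with a median log2 change of −2.08 beside −0.02 over all homologs, of which 6.78% fell. Of these 8, 5 are genes of the stomatal lineage and 3 act in mature guard cells. With the replicate block 1 fell, as did 1.45% of all homologs. Without single libraries between 0 and 6 fell, with 0 without terrestrial replicate 3, aquatic replicate 2 or aquatic replicate 3, and 1 without terrestrial replicate 2. Over all homologs these fits called 16, 0, 155 and 39 lower, in that order. The 6 came without terrestrial or aquatic replicate 1, where 704 and 758 homologs were lower. The summed level of the 8 markers was 363 to 476 CPM in the terrestrial libraries. It was 387 and 407 CPM in the 11-day aquatic libraries and 121 CPM in the 14-day aquatic library, with 1 marker at 0 there (TOO MANY MOUTHS, which patterns stomata). SDD1, a gene of the stomatal lineage, made up most of this sum in every library. It stood at 199.6, 311 and 302 CPM on land and at 112, 343 and 349 CPM under water. The sum therefore says little about the other markers.

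Of these markers, 3 genes of mature guard cells are given with their values. BLUS1, a kinase of blue-light stomatal opening, had 46.3, 5.44 and 7.33 CPM on land and 0.270, 0.5502 and 0.370 CPM under water, the latter from 3, 8 and 6 counts. Its fall passed (adjusted p = 0.0205 from edgeR, or 0.0640 with the replicate block), and its interaction did not (adjusted p = 0.0584). MYB60, a guard cell transcription factor, had 41.0, 18.8 and 14.6 CPM on land and 0.1801, 4.13 and 5.30 CPM under water, and its aquatic effect differed between harvests (adjusted p = 0.0143 for the interaction from edgeR, or 0.0519 without terrestrial replicate 3). ALMT12, an anion channel of stomatal closure, had 22.3, 7.28 and 7.20 CPM on land and 0.0901, 5.57 and 7.09 CPM under water (adjusted p = 0.00966 for the interaction). Neither MYB60 nor ALMT12 passed for the aquatic effect (adjusted p = 0.116 and 0.438 from edgeR). All 3 genes were highest in the 14-day terrestrial and lowest in the 14-day aquatic library, as ABCG22 was. For BLUS1 the order under water rests on few counts.

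The 5 genes of the stomatal lineage did not share that order. On land all 5 were lower in the 14-day than in both 11-day libraries, at 0.248 beside 8.51 and 18.6 CPM for TOO MANY MOUTHS, 51.9 beside 96.3 and 114 CPM for ICE1 and 199.6 beside 311 and 302 CPM for SDD1, a protease that limits stomatal number. SPCH and MUTE, factors that start and end the divisions of the lineage, stood at 0.496 beside 3.06 and 6.24 CPM and at 0.868 beside 2.72 and 6.17 CPM. Under water MUTE was highest in the 14-day library, at 2.61 CPM beside 0.413 and 0.863 CPM, and the other 4 were lowest there. The part of guard cell number in the values of ABCG22 and RD22 was not tested.

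By a change of at least 2-fold in FPKM in all 3 experiments, CYP707A2 and ABCG22 were lower in aquatic plants, as were 3.9% of 7383 homologs, and 2.95% were higher. Their FPKM ratios of aquatic over terrestrial were at most 0.0145 and 0.0261. PYL1 stood at 1.08, 1.95 and 2.46 and PYL4 at 1.34, 2.19 and 4.16 in experiments 1 to 3, on the FPKM as deposited, before the quantile normalization that the study applied. The median FPKM ratio of all homologs was 0.615 in experiment 1, where aquatic replicate 1 has 36.2% of its counts in 3 transcripts, and 0.930 and 0.879 in experiments 2 and 3. After quantile normalization of log2(FPKM + 1), chosen after seeing the data, the ratios of FPKM + 1 were 1.61, 1.88 and 2.56 for PYL1 and 2.29, 2.104 and 4.12 for PYL4. PYL4 was thus at least 2-fold higher in all 3 experiments by CPM and by quantile-normalized FPKM and in 2 of 3 by FPKM as deposited, and PYL1 in 2, 1 and 1 of 3. RD22 had FPKM ratios of 0.0140, 0.521 and 0.988.

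An exact permutation test of the difference in mean log2(CPM + 1), two-sided with 3 libraries against 3, gave p = 0.1 for PYL1, PYL4, CYP707A2 and ABCG22, the smallest p that this design allows, and p = 0.6 for RD22. In a fit over 58039 assembled transcripts, where 6.42% were called higher and 4.04% lower, the same 4 transcripts passed in the same directions. Each locus had 1 transcript, so this fit used the same counts and is no separate support. Alternative runs of this fit lost the call in 7 for PYL1, 6 for PYL4 and 5 for ABCG22, and kept it in all 10 for CYP707A2.

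Over all ABA lists, 93 loci were listed, 27 were in the annotation and 19 were tested, of which 4 rose and 3 fell, with a median log2 change of 0.14, where 9.6% of all homologs rose and 6.78% fell. These lists were written with earlier results of these data known. Without the 5 homologs above, 14 were tested, 2 rose and 1 fell, with a median of 0.16 beside −0.02 over all homologs. With the replicate block the 19 gave 1 call upward and 1 downward, where 4.01% of all homologs were called higher and 1.45% lower. Without single libraries the same 19 loci gave between 0 and 6 upward and between 0 and 4 downward. They gave 0 in both directions without aquatic replicate 2, and 0 upward and 1 downward without terrestrial replicate 2 or terrestrial replicate 3. Over all homologs, edgeR called 0 without aquatic replicate 2. It called 119 higher and 39 lower without terrestrial replicate 2, and 54 and 16 without terrestrial replicate 3. The 6 upward and 4 downward came without terrestrial or aquatic replicate 1, where 846 and 870 homologs were higher and 704 and 758 lower.

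In ABA synthesis, 5 of 13 listed loci were measured, and 1 fell over all 6 libraries. Without terrestrial replicate 1 or aquatic replicate 1, edgeR called 2 of these loci higher and 1 lower. Those fits called 846 and 870 of all homologs higher and 704 and 758 lower. AAO2, an aldehyde oxidase related to the enzyme of the last step, stood at 147, 96.0 and 86.9 CPM on land and at 39.1, 37.8 and 49.6 CPM under water, a fall of 1.34 log2 units (adjusted p = 0.0238 with a standard error of 0.23, from edgeR). The highest aquatic value was below the lowest terrestrial one, and the call was lost with the replicate block (adjusted p = 0.0656) and without terrestrial replicate 2, terrestrial replicate 3 or aquatic replicate 2 (0.0869, 0.0893 and 0.0926). ABA1, the zeaxanthin epoxidase, had a log2 change of 0.79 (adjusted p = 0.0505) and ABA2, which makes abscisic aldehyde, 0.99 (adjusted p = 0.115). NCED3, the carotenoid-cleaving step, stood at −1.78 (adjusted p = 0.304), and none of these 3 passed over all 6 libraries. NCED3 was low throughout, at 0.129 to 3.04 CPM on land and 0 to 1.08 CPM under water. For ABA2 the effect differed between harvests (adjusted p = 0.0479 for the interaction from edgeR, 0.0657 with the replicate block, and 0.115 and 0.0928 without terrestrial replicate 2 and 3), with 32.4 CPM in the 14-day and 80.7 and 87.7 CPM in the 11-day aquatic libraries beside 26.9 to 34.02 CPM on land.

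Among the phosphatases, kinases and transcription factors downstream of the receptors, none of the tested homologs passed over all 6 libraries with TMM. With library totals, or without terrestrial or aquatic replicate 1, 1 SnRK2 kinase was called lower. Without aquatic replicate 3, 1 PP2C phosphatase was called lower. Over all homologs these fits called 449, 704, 758 and 155 lower, in that order. AHG1, the 1 PP2C phosphatase of 9 listed with a match, had a log2 change of −3.17 (adjusted p = 0.0513), with 4.65, 2.38 and 4.56 CPM on land and 0.0901, 0.206 and 0.924 CPM under water. Of the SnRK2 kinases, OST1, which drives stomatal closure in *Arabidopsis*, had a change of 0.14 (standard error 0.12, adjusted p = 0.420), and SNRK2.8 stood at −1.12 (adjusted p = 0.0679). RD26, a NAC transcription factor induced by ABA, had a change of 1.75 (adjusted p = 0.166), and ABI5, a bZIP factor of seeds, was too low to test, with 0, 8 and 8 counts on land and 0, 18 and 42 under water.

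Among transporters, the other homolog measured was NPF4.6, a nitrate transporter that also imports ABA, with a change of 0.27 (adjusted p = 0.312). Among drought- and ABA-responsive genes, 5 of 20 listed were tested, and 2 rose. LEA14, a late embryogenesis abundant protein, had 7.75, 18.6 and 17.7 CPM on land and 119, 73.4 and 49.7 CPM under water, a rise of 2.45 log2 units (adjusted p = 0.0393 with a standard error of 0.52, from edgeR). ERD1, a chloroplast Clp protease subunit, rose by 0.98 (adjusted p = 0.0351), with 60.5 to 196 CPM under water and 31.1 to 112 CPM on land, where the groups overlapped but each experiment was higher under water. With the replicate block ERD1 passed (adjusted p = 0.0425) and LEA14 did not (0.0950), and neither passed without terrestrial replicate 2, terrestrial replicate 3, aquatic replicate 2 or aquatic replicate 3 (0.0582 to 0.136). RD29B, another ABA-induced protein, had −2.28 (adjusted p = 0.149) and like RD22 did not pass. COR47, KIN2, RD20 and EM6 had 1 to 20 counts in all and were not tested.

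**Figure D3:**
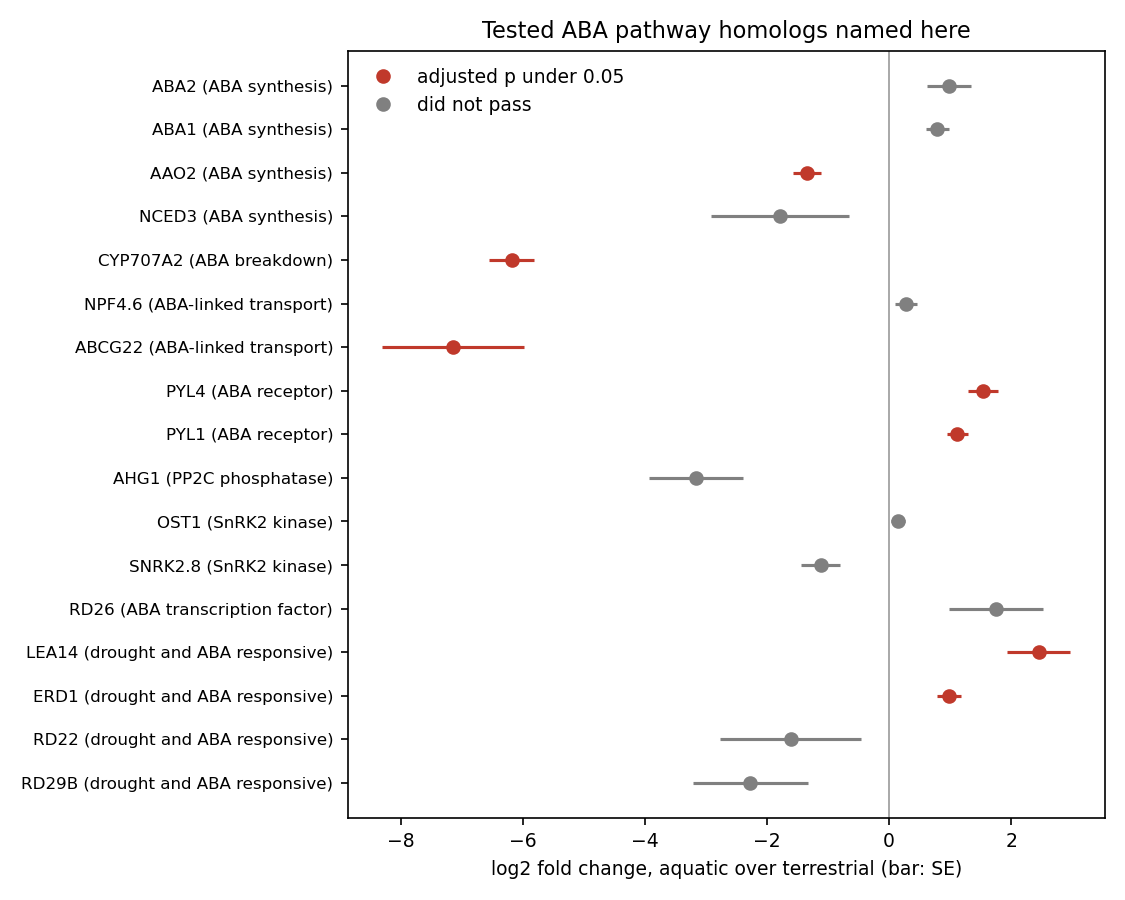
Log2 fold change, aquatic over terrestrial, with its SE, for the ABA pathway homologs named here that were tested, from edgeR over all 6 libraries; red marks an adjusted p under 0.05. The receptors PYL1 and PYL4 lie with LEA14 and ERD1 above 0, and CYP707A2, ABCG22 and AAO2 below 0.

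The 5 homologs share few annotation terms. PYL1 and PYL4 share the GO terms receptor activity, protein binding, nucleus and ABA-activated signaling pathway, and CYP707A2 and ABCG22 share integral component of membrane. No term was given to 3 or more of them.

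By profile over the 6 libraries, the homologs closest to each were found from the root mean square difference of mean-centred log2(CPM + 1). For PYL1 these were AT2G37900, a predicted oligopeptide transporter (0.0827), AT3G53140, a predicted O-methyltransferase (0.0970), and CYP94D2, a cytochrome P450 (0.114). Within 0.5 of PYL1 lay 1620 homologs. The distance is not scaled to the size of the change, so a homolog of small change lies near many others. Counts within 0.5 therefore do not show how common a shape is. For PYL4 they were AT3G01930 (0.118), AT1G21920 (0.208) and AT1G67480 (0.231), with 304 homologs within 0.5.

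The 3 other homologs, whose levels changed more, had fewer homologs within 0.5. CYP707A2 was closest to YUC9, a flavin monooxygenase of auxin synthesis (0.173), AT1G33811, a predicted ester hydrolase (0.353), and AT2G37100 (0.466), and 5 homologs lay within 0.5. YUC9 had 16.9, 5.10 and 10.1 CPM on land and 0.0901, 0.0688 and 0 CPM under water, so its terrestrial libraries took the same order as those of CYP707A2. ABCG22 had none within 0.5, and the nearest were AT1G09310 (0.957), the ion channel DND1 (0.961) and the cytochrome P450 CYP71A21 (1.02).

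RD22 had 11 homologs within 0.5. The closest were GH9B13, an endoglucanase (0.273), AT1G78060, a predicted cell wall glycosyl hydrolase (0.283), and AT4G23820, a predicted polygalacturonase (0.362). GH9B13 had 58.4, 92.4 and 65.2 CPM on land and 0.450, 81.0 and 105 CPM under water, low in aquatic replicate 1 as RD22 was.

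**Figure D4:**
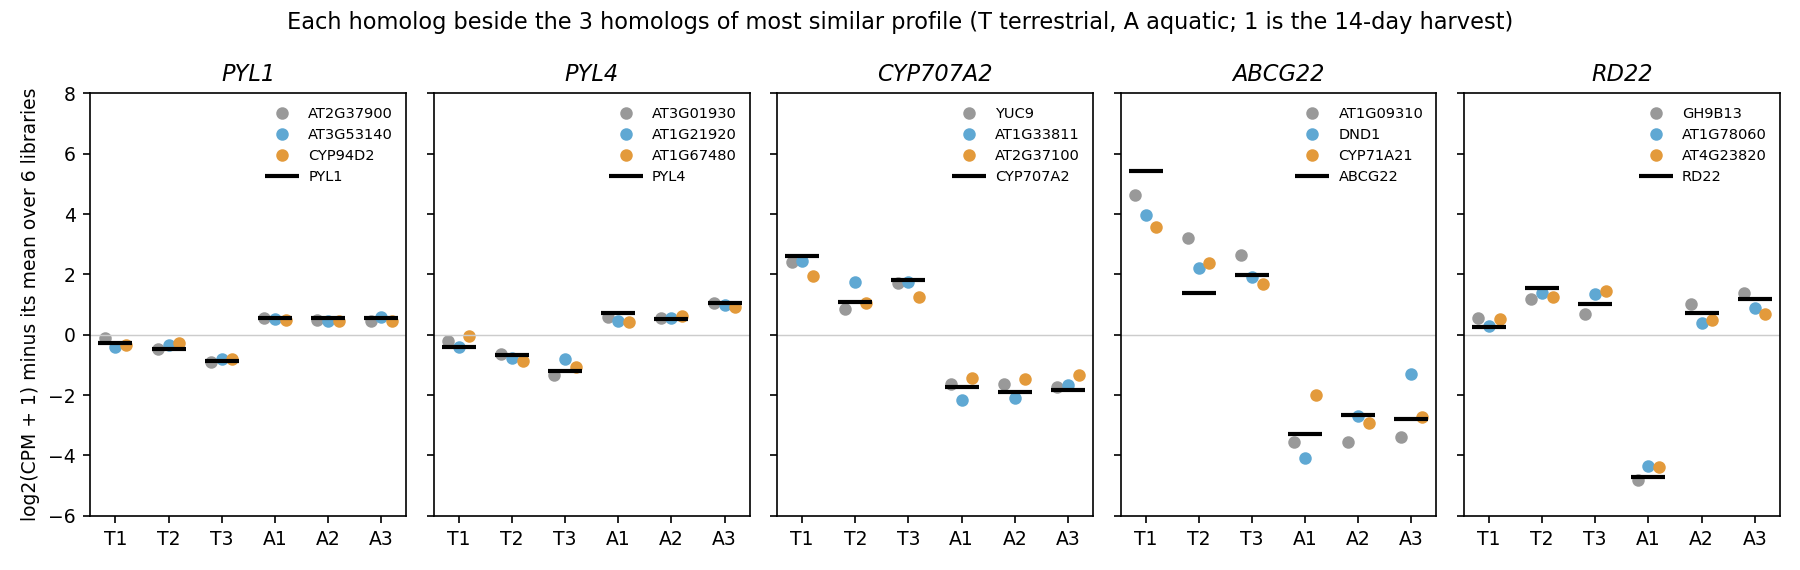
log2(CPM + 1) minus its mean over the 6 libraries, for each homolog (black bars) and the 3 homologs of most similar profile (coloured points), with T for terrestrial and A for aquatic libraries and 1 for the 14-day harvest. RD22 and its neighbours drop only in aquatic replicate 1, while the profiles nearest to ABCG22 are 0.957 to 1.02 away from it in root mean square difference.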

How the data were processed

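Total RNA of 3 terrestrial and 3 aquatic libraries was grouped by the labels. Trinity was used by the authors for de novo assembly, and TopHat and Cufflinks are named, without versions. The authors' expected counts (estimated fragments per transcript) were whole as deposited. TPM and FPKM were computed by the authors per transcript length and library and deposited before quantile normalization. The deposited annotation gives the authors' alignment score and percent identity to the best protein match, and the library files the percent of a component in each transcript. Of the annotation's columns, 6 with values per library were not used, nor were the authors' tables of leaf GO terms with their log2 ratios.

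Expected counts were summed per *Arabidopsis* match and tested with edgeR 4.0.16 (R 4.3.3) by quasi-likelihood with TMM, filterByExpr (minimum count 10), harvest and condition as terms (3 residual degrees of freedom) and Benjamini-Hochberg adjustment over 8154 homologs. The interaction fit left 2 residual degrees of freedom, or 1 with the replicate block. The standard error is the log2 fold change over the root of F. Counting intervals are exact binomial (95%). Scripts were tested on simulated data. Same-numbered libraries of the conditions deviated together (correlations 0.645, 0.518 and 0.445), so the numbers were taken to pair them, although the 11-day libraries of unlike number did so too (0.452 and 0.559). The correlations therefore do not show that replicate numbers 2 and 3 pair libraries within the 11-day harvest. limma 3.58.1 and DESeq2 1.42.0 were alternatives. The 5 homologs and all gene lists were chosen with earlier results of these data known. Besides these 5, the genes named are all measured homologs of ABA breakdown and reception, up to 4 of each other list by smallest adjusted p, the 3 nearest profiles, and markers beside a result.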

Additional observations from a re-analysis of the deposited data

Results flagged for a closer look

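The aquatic effect of ABCG22 was larger in the 14-day than in the 11-day harvest by a test of the difference itself (interaction −5.74 on the log2 scale, adjusted p = 0.0287 from edgeR's quasi-likelihood test with Benjamini-Hochberg adjustment). The aquatic effect of RD22 differed between the harvests in the same direction (interaction −5.10, adjusted p = 0.0170, or 0.0516 with the replicate block). Both rest on 1 library a condition at 14 days. The aquatic one is aquatic replicate 1, with 36.2% of its counts in 3 unannotated transcripts, and its part in these differences was not tested, since the interaction cannot be fitted without it. Age, tissue and time under water of the harvests cannot be told apart.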

How the results depend on the processing

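The direction of the fitted effect of PYL1, PYL4, CYP707A2, ABCG22 and RD22 was the same under every alternative run. Quantile normalization of log2(FPKM + 1), added after seeing the data, gave log2 ratios of −2.49, −1.61 and −2.28 for CYP707A2 in experiments 1 to 3, −6.38 for ABCG22 in experiment 1 and 0.047 for RD22 in experiment 3, which was −0.02 by FPKM as deposited. With the replicate block in edgeR, PYL1 stood at 1.13, PYL4 at 1.54 and ABCG22 at −7.09 and no longer passed, CYP707A2 passed, and 327 homologs were called higher and 118 lower. With no harvest term PYL1 (1.10), PYL4 (1.52) and ABCG22 (−8.35) did not pass, and 25 and 9 homologs were called. With library totals in place of TMM, PYL1 (0.79) and PYL4 (1.22) did not pass, and 294 were called higher. Leaving out libraries gave 0.92 to 1.26 for PYL1, 1.17 to 1.73 for PYL4, −6.41 to −5.98 for CYP707A2, −8.26 to −5.62 for ABCG22 and −3.03 to −0.34 for RD22.

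Homolog calls ranged from 0 to 885 higher and 0 to 758 lower when libraries were left out. Without aquatic replicate 2, edgeR called 0 (2478 passed 0.05 before adjustment, an unadjusted p). Leaving out replicate 2 or 3 of both conditions also gave 0 calls (1264 and 1369 before adjustment), in fits with 2 libraries a condition and a harvest term. Leaving out replicate 1 of both also left 2 libraries a condition, all of the 11-day harvest, and gave 885 higher and 733 lower. DESeq2 called 1371 higher and 1313 lower. The count lower was 875 with totals less the 3 abundant transcripts, 960 with upper quartile scaling and 836 with limma on log2(FPKM + 0.1). Calls upward were 58.6% of all calls, and 39.6 to 42.7% with library totals, totals less those transcripts or upper quartile scaling, which moved the median of all homologs to between −0.35 and −0.13. They were 46.8 and 47.4% with limma and 73.5% with the block or no harvest term.

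Over transcripts, 3727 were higher and 2346 lower. The block gave 2364 and 956, no harvest term 746 and 294, no filter on low counts 1284 and 542, and DESeq2 4408 lower, and leaving out libraries 1204 to 4020 and 434 to 2694. The harvest term gave 473 to 779 higher and 620 to 1089 lower without single 11-day libraries, and the interaction 7 to 189 and 103 to 540. With the block, an alternative chosen after seeing the data, the interaction gave 26 and 188. With 8 aquatic counts of CYP707A2 and 25 of ABCG22, the size of their falls is limited by depth, and the 14-day harvest has no replicate.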
